A study of Mus musculus with 6 samples.

Results

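The cytochrome P450 family was examined across 6 mouse colon tumours as the protein-coding genes whose symbol is Cyp followed by a digit. Such genes filled 100 of the 53700 gene rows, and the 47 with 30 or more counts summed over the 6 libraries are described. Among the other 53 genes 21 had 0 counts in every library, Cyp2ab1 lay just outside the limit with 29 counts, and Cyp19a1 and Cyp26a1 lay just inside it with 35 and 43. One group of 3 tumours came from APC-WT mice, in which endogenous Tcf7l2 stayed on, after 10 days of doxycycline, when the animals were cachectic (wasting with advanced cancer). The other 3 came from APC-KI mice, in which doxycycline represses Tcf7l2 throughout the body, after 6 weeks of doxycycline, when the animals had recovered. All animals received doxycycline at 100 mg/kg in food pellets. Genotype, time on the drug and wasting state therefore cannot be told apart, and the sources used here give no strain, age or sex.

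Cytochrome P450 enzymes are haem proteins that insert an oxygen atom into small lipophilic molecules, drawing electrons from the reductase Por or, in mitochondria, from ferredoxin. Families CYP1 to CYP4 oxidise drugs, plant compounds, fatty acids and eicosanoids, and the other families make or break down cholesterol, bile acids, steroid hormones, vitamin D and retinoic acid. Liver holds most of them, while the intestinal epithelium carries a smaller set that meets dietary compounds and microbial products first.

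The libraries held 51777342 to 63921108 counts. Tcf7l2, the repressed gene, stood at 44.1, 43.8 and 35.6 CPM (counts-per-million, scaled with TMM factors) in APC-WT replicates 1 to 3 and at 4.48, 6.90 and 5.34 CPM in APC-KI replicates 1 to 3. The tumours carried colon epithelial markers: Epcam ranged from 1261 to 1829 CPM and Vil1 from 404.8 to 774.4 CPM. Counts of 4 Y-linked genes reached 19164 and 16055 in the first and second APC-WT replicate. They were 0 elsewhere, so that 1 APC-WT library shares this state with the APC-KI group. Nothing in the labels says whether each tumour is a separate animal, and p-values measure the spread between these libraries.

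Of the 47 P450 genes 43 passed the filter on low counts and entered the edgeR quasi-likelihood test. The test called 13 higher and 1 lower in APC-KI tumours at a Benjamini-Hochberg adjusted p under 0.05, or 30.2% and 2.33% of the tested members. Over all 19127 genes tested the shares were 12.5% higher and 7.63% lower, 20.1% in all. With library totals in place of TMM factors 1978 genes (10.3%) were higher and 2844 (14.9%) lower, and the members were then 12 higher and 3 lower. The median log2 change was 0.442 for the tested members and −0.016 for all genes. The 2 groups had separate ranges for 17 members higher in APC-KI (39.5%, against 23.0% of all genes) and for 4 members lower (9.30%, against 21.5%). Cyp2a4, Cyp2a5 and Cyp4a29 reached the filter's level in APC-KI libraries only, so these 3 could enter the test only by being higher there. Cyp19a1, Cyp26a1, Cyp2b9 and Cyp4f15 were too low to be tested.

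**Figure D1:**
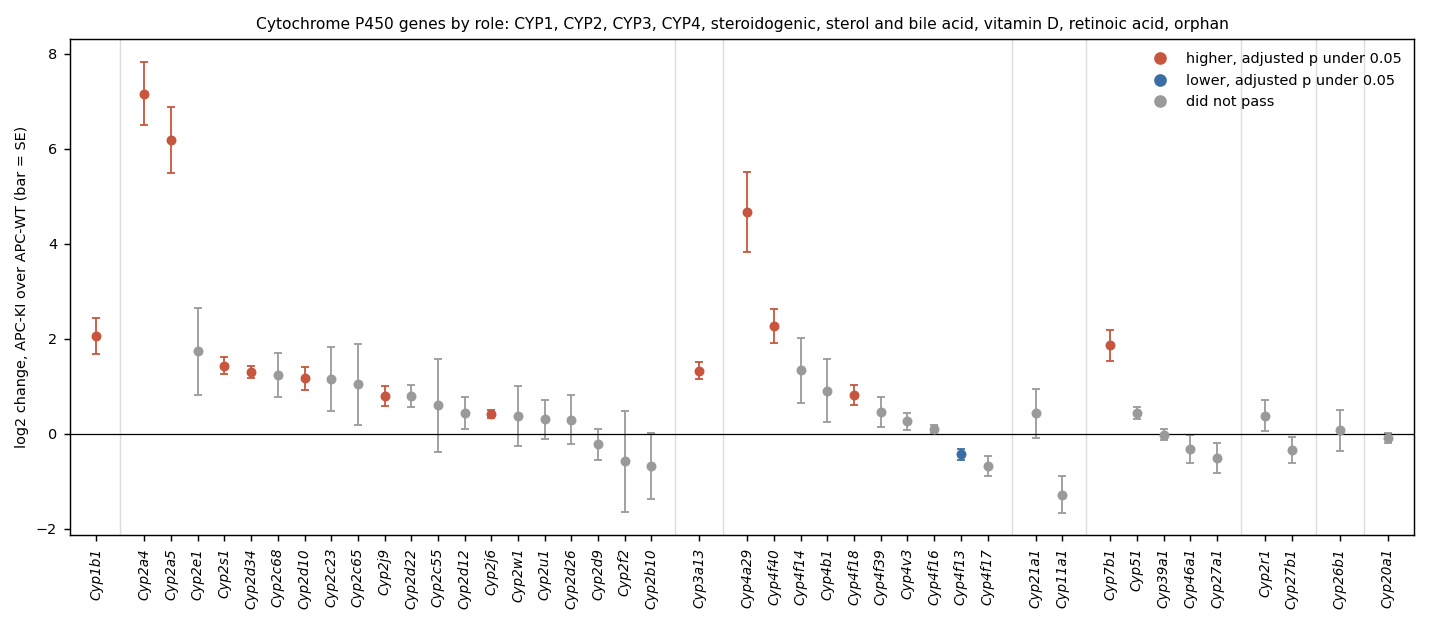
Fitted log2 change of the 43 tested P450 genes (points, y axis, APC-KI over APC-WT) with an approximate standard error (bars), derived from the test's F statistic. Genes are grouped by role from left to right as the title lists them, and colour marks the edgeR call. The 13 higher genes lie in the CYP1, CYP2, CYP3, CYP4 and sterol groups, and Cyp4f13, at −0.43, is the lower one.

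On the scale of CPM per kilobase of annotated exon, which allows levels to be compared between genes, the sterol enzyme Cyp51 was highest in both groups, at 33.7 in APC-WT and 45.7 in APC-KI tumours. It was followed in APC-WT tumours by Cyp27a1 at 27.0, Cyp2j6 at 18.8, Cyp2d34 at 14.7 and Cyp20a1 at 11.8 CPM per kilobase. In APC-KI tumours the order after Cyp51 was Cyp2d34 at 36.1, Cyp2j6 at 25.0, Cyp4f40 at 24.4 and Cyp27a1 at 19.1 CPM per kilobase. Within this scale Cyp4f40 moved from 5.07 to 24.4 and Cyp2d34 from 14.7 to 36.1. The neighbours Cyp2j6 and Cyp4f40 in APC-KI tumours differed by less than the spread of Cyp4f40, whose libraries ranged from 41.6 to 78.3 CPM.

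The steepest rises were those of Cyp2a4 (ENSMUSG00000074254) and Cyp2a5 (ENSMUSG00000005547), similar copies on chromosome 7 whose enzymes hydroxylate steroids and coumarin and oxidise nicotine. The copies share much of their sequence: 36.1% of the 50-base words in Cyp2a4 transcripts also occur in Cyp2a5 transcripts. Their promoter windows (RefSeq, GRCm38.p6, 250 bases before to 50 after the start site, both on the + strand of chromosome 7) are shown because the genes rose together. In an alignment of the windows, 294 of the 300 bases of each (98.0%) match a base of the other. Capitals mark the 6 bases of each window with no matching base in the other. The first capital of Cyp2a4 and the last of Cyp2a5 pair with a gap, because the windows are offset.
Cyp2a4, chr7:26306942-26307241: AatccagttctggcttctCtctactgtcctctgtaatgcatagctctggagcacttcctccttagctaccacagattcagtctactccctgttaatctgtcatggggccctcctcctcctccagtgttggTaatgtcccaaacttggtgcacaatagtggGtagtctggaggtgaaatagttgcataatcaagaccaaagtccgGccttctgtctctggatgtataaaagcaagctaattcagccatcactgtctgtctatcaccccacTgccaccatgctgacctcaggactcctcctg
Cyp2a5, chr7:26835089-26835388: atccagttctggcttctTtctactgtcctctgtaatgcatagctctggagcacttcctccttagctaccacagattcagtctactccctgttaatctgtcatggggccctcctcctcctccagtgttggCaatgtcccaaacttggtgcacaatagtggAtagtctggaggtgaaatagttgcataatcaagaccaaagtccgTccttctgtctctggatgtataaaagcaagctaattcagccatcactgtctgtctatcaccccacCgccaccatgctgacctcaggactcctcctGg

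Cyp2a4 had 0, 0 and 1 counts in the APC-WT replicates, against 55, 46 and 81 in those of APC-KI. In CPM the APC-KI libraries stood at 1.06, 0.88 and 1.44, and every APC-WT library at or under 0.019. The ratio of summed counts was 200.7, with an exact (Clopper-Pearson) 95% interval of 35.6 to 7969.5 that covers counting error only (log2 change 7.16 ± 0.67 SE, edgeR adjusted p = 0.0038). Cyp2a5 had 2, 1 and 0 counts among APC-WT and 48, 54 and 121 counts among APC-KI libraries. Its ratio was 82.0 with an interval of 27.7 to 400.5 (log2 change 6.17 ± 0.69 SE, edgeR adjusted p = 0.00532). APC-KI replicate 3 was the highest library for both copies, and the groups were far apart. Because reads from shared stretches can be split between the copies in ways that depend on the counter, the sum was taken as well. The 4 genes of the Cyp2a subfamily together held 0.0221 ± 0.00686 CPM (SD, n = 3) among APC-WT and 2.50 ± 0.947 CPM (SD, n = 3) among APC-KI tumours. APC-WT replicate 3, which also lacked Y-linked counts, held 1 count of Cyp2a4 and 0 of Cyp2a5. In a fit restricted to the 4 libraries that lacked Y-linked counts Cyp2a4 passed again and Cyp2a5 did not (edgeR adjusted p = 0.0571). The fitted log2 change of Cyp2a5 was 9.20 there, larger than with all 6 libraries, but the one APC-WT library of that fit had 0 counts, so this value depends on the prior count and is no bound.

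Cyp4a29 (ENSMUSG00000083138), a member of the fatty acid omega-hydroxylase subfamily that PPARA controls in liver, had a like pattern. It held 0, 0 and 4 counts among APC-WT and 37, 37 and 28 counts among APC-KI libraries, a ratio of 28.1 with an exact 95% interval of 10.7 to 105.2 (log2 change 4.67 ± 0.85 SE, edgeR adjusted p = 0.0153). All 4 APC-WT counts came from replicate 3. The call was lost without APC-WT replicate 2 (adjusted p = 0.0561), APC-KI replicate 1 (0.0586) or APC-KI replicate 2 (0.0523), with log2 changes between 4.13 and 4.59. Over all 6 single left-out libraries the log2 change ran from 4.04 to 8.18. The highest value came without APC-WT replicate 3, which leaves 0 APC-WT counts, so it depends on the prior count. The other 7 genes of the Cyp4a subfamily had between 0 and 4 counts each over the 6 libraries. Since Cyp2a and Cyp4a enzymes are best known from liver, hepatocyte markers are given beside them: edgeR called 0 of 4 tested, with 0 at an unadjusted p under 0.05 and 0 with DESeq2 or limma-voom. The list of 8 summed to 27.4 to 85.7 CPM among APC-WT and 20.3 to 26.5 CPM among APC-KI libraries. Alb was at 15.0 to 80.0 CPM among APC-WT and 8.79 to 19.4 CPM among APC-KI libraries, Serpina3k was at 0 in every library, and Fgb did not exceed 0.019 CPM.

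Among the other CYP2 genes, Cyp2d34, Cyp2d10, Cyp2s1, Cyp2j6 and Cyp2j9 rose. Cyp2d genes belong to a tandem cluster of drug-oxidising enzymes. Cyp2d34 (ENSMUSG00000094559) stood at 42.7, 41.8 and 37.8 CPM among APC-WT and at 105.6, 111.6 and 83.8 CPM among APC-KI libraries. Its lowest APC-KI library was far above the highest APC-WT library, and the change was 2.46-fold (log2 1.30 ± 0.12 SE, edgeR adjusted p = 0.0038). Cyp2d10 (ENSMUSG00000094806) stood at 2.70, 4.91 and 3.93 CPM among APC-WT and at 9.22, 8.34 and 8.42 CPM among APC-KI libraries. The change was 2.25-fold (log2 1.17 ± 0.24 SE, edgeR adjusted p = 0.0216). Its call, not its size, was lost without APC-KI replicate 1 (log2 1.13, adjusted p = 0.0774) or APC-KI replicate 2 (log2 1.20, adjusted p = 0.063). Of the remaining cluster members, Cyp2d22 did not pass (log2 0.79, adjusted p = 0.0558) although its groups did not overlap, at 3.45 to 5.11 and 5.63 to 8.02 CPM. It passed without APC-WT replicate 1 (adjusted p = 0.0499). Cyp2d12, Cyp2d26 and Cyp2d9 had log2 differences of 0.44, 0.30 and −0.22 with overlapping groups. Cyp2d10 shares 35.8% of its 50-base words with other genes, Cyp2d34 7.6%. Summed over the 8 genes of the subfamily, the cluster held 61.5 ± 7.96 CPM among APC-WT and 131.2 ± 16.7 CPM among APC-KI tumours (SD, n = 3).

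Cyp2s1 (ENSMUSG00000040703), a P450 of surface epithelia that is inducible by aryl hydrocarbons, rose 2.70-fold. It stood at 6.91, 8.39 and 7.16 CPM among APC-WT and at 23.5, 21.0 and 16.1 CPM among APC-KI libraries (log2 1.43 ± 0.18 SE, edgeR adjusted p = 0.00626). Enzymes of the Cyp2j subfamily, with 2 members here, oxidise arachidonic acid. Cyp2j6 (ENSMUSG00000052914) rose 1.33-fold, from 69.7, 68.7 and 64.8 CPM to 99.1, 82.0 and 88.7 CPM (log2 0.41 ± 0.09 SE, edgeR adjusted p = 0.0231). The change of Cyp2j6 was small, yet no library of one group lay within the range of the other. Its call was lost without APC-WT replicate 2 (adjusted p = 0.0815) or APC-KI replicate 1 (0.0645). Cyp2j9 (ENSMUSG00000015224) rose 1.74-fold, from 0.915, 0.879 and 0.898 CPM to 1.42, 1.70 and 1.57 CPM (log2 0.80 ± 0.21 SE, edgeR adjusted p = 0.04). Leaving out any one of the 6 libraries ended the Cyp2j9 call, with adjusted p between 0.0735 and 0.128 and log2 changes between 0.74 and 0.86.

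**Figure D2:**
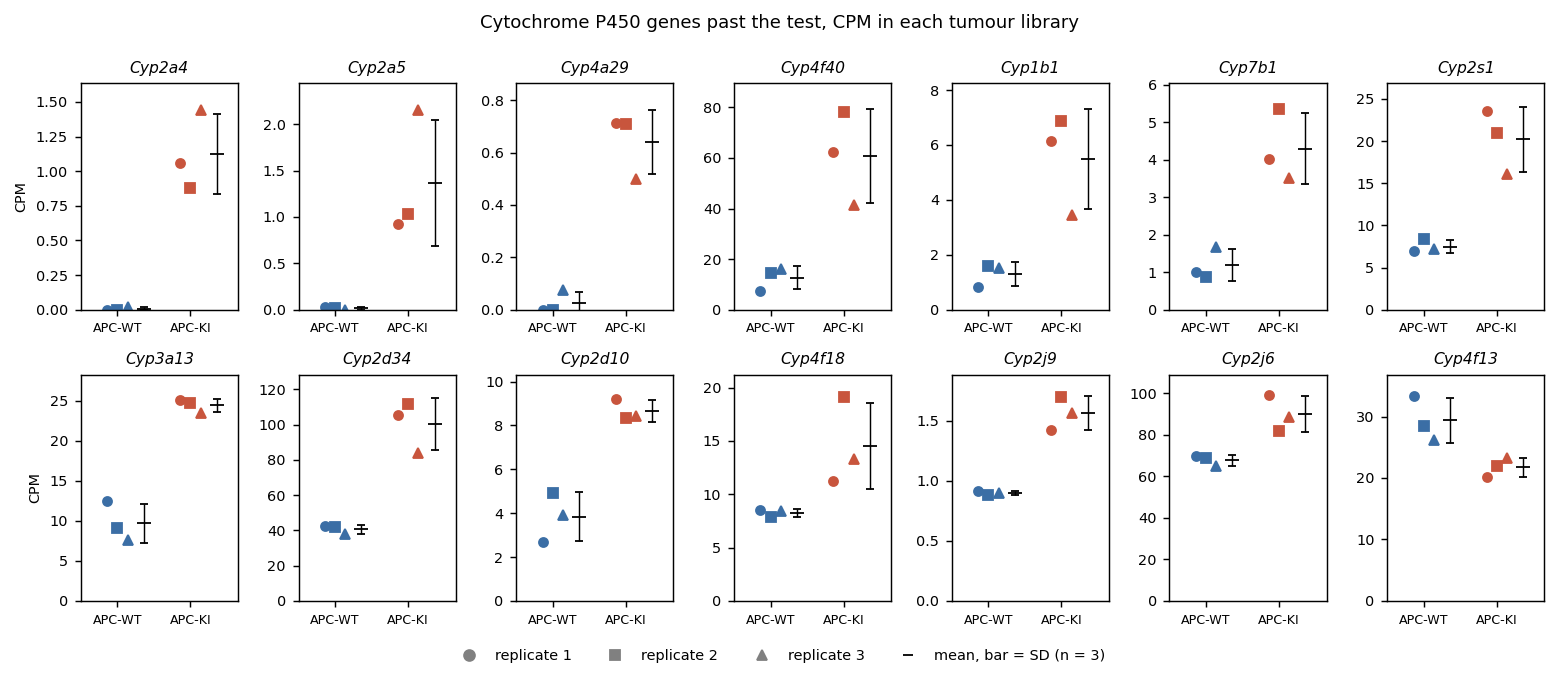
CPM (y axis, linear from 0, a separate scale for each gene) of the 14 P450 genes that passed the test, in APC-WT and APC-KI libraries; symbols mark the replicate, and the black bar is the mean with its SD (n = 3). In each panel the 2 groups do not overlap, and in Cyp4f13 alone the APC-KI libraries, at 20.1 to 23.2 CPM, are the lower ones.

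The CYP2 genes that did not pass were mostly uneven within groups. Cyp2e1, which oxidises ethanol, stood at 1.36, 0.07 and 0.24 CPM among APC-WT and at 2.44, 2.14 and 1.14 CPM among APC-KI libraries (log2 1.74 ± 0.91 SE, adjusted p = 0.212). Without APC-WT replicate 1, its one high library of that group, the log2 change was 3.59 (edgeR adjusted p = 0.0253). Cyp2c68 had a log2 difference of 1.24 (adjusted p = 0.099), with 43.3% of its 50-base words shared with other genes. Cyp2c23, an arachidonic acid epoxygenase, had 0.015 to 0.193 CPM among APC-WT and 0.285 to 0.288 CPM among APC-KI libraries, without overlap (log2 1.15, adjusted p = 0.253). Cyp2w1, which is known from fetal gut and colon tumours, had a log2 difference of 0.37 (adjusted p = 0.696), with APC-KI libraries from 0.708 to 4.52 CPM. Cyp2u1, a fatty acid hydroxylase, and Cyp2f2, a naphthalene-oxidising enzyme of airway cells, had log2 differences of 0.30 and −0.58 with overlapping groups. Cyp2b9 was untested, with 46 counts in all.

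Cyp3a13 (ENSMUSG00000029727), the Cyp3a gene of mouse intestine and one of a subfamily that oxidises many drugs and steroids, rose 2.52-fold. It stood at 12.4, 9.07 and 7.63 CPM among APC-WT and at 25.1, 24.7 and 23.5 CPM among APC-KI libraries (log2 1.33 ± 0.19 SE, edgeR adjusted p = 0.008). The APC-KI libraries lay within a 1.07-fold range. None of its 50-base words occurs in another gene. The other 8 Cyp3a genes of the table had 10 counts or fewer each, so at this depth the subfamily was represented by Cyp3a13. With the Y-linked state as a covariate 4 of 43 tested members passed as higher (Cyp3a13, Cyp2a4, Cyp2a5 and Cyp2d34), against 1.15% of all genes. Of these, Cyp2a4 and Cyp2a5 could enter that fit only by being higher in APC-KI libraries.

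The Cyp4f genes, omega-hydroxylases of leukotrienes and long-chain fatty acids, went different ways. Cyp4f40 (ENSMUSG00000090700) rose 4.82-fold, from 7.33, 14.7 and 15.9 CPM among APC-WT to 62.5, 78.3 and 41.6 CPM among APC-KI libraries (log2 2.27 ± 0.36 SE, edgeR adjusted p = 0.0111). Cyp4f18 (ENSMUSG00000003484), which inactivates leukotrienes in myeloid cells, rose 1.77-fold, from 8.50, 7.82 and 8.40 CPM to 11.3, 19.1 and 13.3 CPM (log2 0.82 ± 0.21 SE, edgeR adjusted p = 0.0377). The lower gene, Cyp4f13 (ENSMUSG00000024055), stood at 33.4, 28.4 and 26.2 CPM among APC-WT and at 20.1, 22.0 and 23.2 CPM among APC-KI libraries, 1.35-fold lower (log2 −0.43 ± 0.12 SE, edgeR adjusted p = 0.0462). Cyp4f17, which lies with it on chromosome 17, had a log2 difference of −0.67 that did not pass (adjusted p = 0.0671), with groups of 8.71 to 12.3 and 5.03 to 7.13 CPM that did not overlap.

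Exons of Cyp4f18 and of Zfp961 on the other strand overlap by 181 bases, where reads cannot be told apart without the strand. Cyp4f16 was close to level, at 32.4 to 34.5 CPM among APC-WT and 35.0 to 38.1 CPM among APC-KI libraries (log2 0.10 ± 0.08 SE, adjusted p = 0.358). Cyp4f39, which makes the very long hydroxylated acids of skin barrier lipids, and Cyp4v3, a fatty acid hydroxylase of the eye and other tissues, had log2 differences of 0.46 and 0.26 with overlapping groups. Cyp4b1 had a log2 difference of 0.91 (adjusted p = 0.356) and passed only without APC-WT replicate 3 (log2 2.11, edgeR adjusted p = 0.027). Cyp4f15 was untested, with 22 of its 44 counts in APC-KI replicate 3. The 9 genes of the subfamily summed to 103.5 ± 2.25 CPM among APC-WT and 162.7 ± 35.3 CPM among APC-KI tumours (SD, n = 3). Macrophage markers moved with Cyp4f18: 3 of 8 rose and 0 fell, with list sums of 366.0 to 475.7 CPM among APC-WT and 519.8 to 735.2 CPM among APC-KI libraries. Their part in the Cyp4f18 result was not tested, and in these bulk samples more cells of a type and more RNA per cell cannot be told apart.

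The Cyp4f18 call was lost when any library but APC-KI replicate 1 was left out, with adjusted p between 0.0558 and 0.119. The log2 change of Cyp4f18 was 0.58 without APC-KI replicate 2, its highest library. Cyp4f13 kept its call without APC-WT replicate 3 and lost it when any other library was left out (adjusted p between 0.0612 and 0.145, log2 change between −0.33 and −0.49). Cyp4f40 kept its call whichever library was left out.

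Cyp1b1 (ENSMUSG00000024087), which oxidises polycyclic hydrocarbons and oestrogens and is a target of the aryl hydrocarbon receptor AHR, rose 4.18-fold. It stood at 0.81, 1.60 and 1.53 CPM among APC-WT and at 6.15, 6.89 and 3.43 CPM among APC-KI libraries (log2 2.06 ± 0.38 SE, edgeR adjusted p = 0.0158). The lowest APC-KI library lay above the highest APC-WT library. The call was lost without APC-WT replicate 2 (adjusted p = 0.0519), APC-KI replicate 1 (0.0608) or APC-KI replicate 2 (0.0539). The sister genes were near absent: Cyp1a1 had 11 counts, of which 10 in APC-KI replicate 2, and Cyp1a2 had 1.

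The Cyp1b1 promoter window (RefSeq, GRCm38.p6, − strand) is shown because AHR is the best known regulator of this gene and Ahr was itself measured. Capitals mark the single match to the AHR core GCGTG or its reverse CACGC, which begins 76 bases before the start site.
Cyp1b1, chr17:79715012-79715311: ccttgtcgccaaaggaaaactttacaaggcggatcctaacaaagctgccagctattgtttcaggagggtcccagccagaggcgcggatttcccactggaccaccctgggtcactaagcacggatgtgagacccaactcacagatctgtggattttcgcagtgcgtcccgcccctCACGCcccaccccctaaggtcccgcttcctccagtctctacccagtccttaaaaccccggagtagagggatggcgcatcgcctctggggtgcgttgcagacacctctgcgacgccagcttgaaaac

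Such a core was present in 32.39% of all 32851 RefSeq windows and in 13 of the 45 windows of P450 members (28.9%), so one match is common. RefSeq windows were found for 38 of the 47 members. The TCF/LEF core CTTTGAT, or its reverse ATCAAAG, was in 0 of these 45 windows and in 3.73% of all windows, which says only that these letters are not in these stretches. An HNF4-type element, CAAAGTCCA or its reverse, was in the windows of Cyp2c65 and Cyp2c68 and in 0.47% of all windows.

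Ahr fell, from 78.8, 74.2 and 67.1 CPM among APC-WT to 43.4, 42.7 and 49.4 CPM among APC-KI libraries (log2 −0.70 ± 0.09 SE, edgeR adjusted p = 0.00732), in the opposite direction to Cyp1b1. Of 6 genes induced through AHR beside CYP1, 3 rose and 0 fell: the quinone reductase Nqo1 by 1.37, the glutathione transferase Gsta1 by 2.82 and the glucuronosyltransferase Ugt1a6a by 1.62 on the log2 scale. The Ugt1a6a call was lost without APC-WT replicate 1 or 2 or APC-KI replicate 1 or 2 (adjusted p between 0.076 and 0.105). With the Y-linked state as a covariate, the calls of Cyp1b1, Ahr, Nqo1, Gsta1 and Ugt1a6a were lost (edgeR adjusted p between 0.0512 and 0.25). Tiparp did not pass (log2 0.47, edgeR adjusted p = 0.0648), although its groups did not overlap, at 18.8 to 19.9 CPM among APC-WT and 21.1 to 30.8 CPM among APC-KI libraries. The AHR repressor Ahrr did not pass (log2 0.76), with overlapping groups. The aldehyde dehydrogenase Aldh3a1 did not pass either, with a log2 difference of −0.62 (adjusted p = 0.189) and lower APC-KI libraries, at 0.249 to 0.442 CPM against 0.486 to 0.633 CPM among APC-WT. Smooth muscle and fibroblast markers moved with Cyp1b1, which mesenchymal cells are known to express, although the tumours had been taken off the muscle layer. All 8 smooth muscle markers rose, with list sums of 188.4 to 471.0 CPM among APC-WT and 1000.1 to 1619.0 CPM among APC-KI libraries. Of 8 fibroblast markers 3 rose, with sums of 888.3 to 2435.8 and 2829.8 to 3919.0 CPM. In APC-KI replicates 1 to 3 the smooth muscle sums were 1000.1, 1246.7 and 1619.0 CPM and the fibroblast sums 2829.8, 3919.0 and 2853.4 CPM. Cyp1b1 was lowest in replicate 3, where the smooth muscle sum was highest, and highest in replicate 2, where the fibroblast sum was highest. The part of these cells in the result was not tested.

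Among sterol and bile acid enzymes 1 of 5 passed. Cyp7b1 (ENSMUSG00000039519), which hydroxylates oxysterols and opens the alternative route to bile acids, rose 3.63-fold. It stood at 1.01, 0.879 and 1.66 CPM among APC-WT and at 4.01, 5.36 and 3.50 CPM among APC-KI libraries (log2 1.86 ± 0.32 SE, edgeR adjusted p = 0.0131), and the groups were well apart. Without APC-WT replicate 2 it did not pass (adjusted p = 0.0536, log2 1.68). Cyp51, the lanosterol demethylase of cholesterol synthesis, stood at 128.7, 163.8 and 154.1 CPM among APC-WT and at 233.8, 185.3 and 186.1 CPM among APC-KI libraries. The groups did not overlap, but the log2 difference of 0.44 ± 0.13 SE did not pass (adjusted p = 0.0573). Its exons overlap those of Akap9 on the other strand by 166 bases.

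Cyp27a1, the mitochondrial side-chain hydroxylase, stood at 67.1, 59.5 and 49.4 CPM among APC-WT and at 32.3, 28.3 and 63.9 CPM among APC-KI libraries. APC-KI replicate 3 lay within the APC-WT range and the other 2 below it, and without that library Cyp27a1 passed as lower (log2 −0.96, edgeR adjusted p = 0.0136) where it had not with all 6 (log2 −0.50, adjusted p = 0.29). Cyp39a1, an oxysterol hydroxylase, was near level, at 20.1 to 22.0 CPM among APC-WT and 17.8 to 22.4 CPM among APC-KI libraries (log2 −0.02). Cyp46a1, the cholesterol hydroxylase of neurons, had 0.545 to 0.72 CPM among APC-WT and 0.384 to 0.64 CPM among APC-KI libraries (log2 −0.31, adjusted p = 0.473). Cyp7a1 and Cyp8b1, enzymes of the classical bile acid route in liver, had 1 and 4 counts in all.

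With edgeR 0 of 2 tested steroidogenic enzymes passed, with 1 at an unadjusted p under 0.05 (Cyp11a1). DESeq2 called Cyp11a1 and Cyp19a1 lower, and limma-voom called 0. Cyp11a1, which cleaves the cholesterol side chain to start steroid synthesis, stood at 1.71, 4.31 and 4.39 CPM among APC-WT and at 1.33, 1.59 and 1.37 CPM among APC-KI libraries. Its groups did not overlap, and the log2 difference of −1.28 ± 0.38 SE missed the threshold (adjusted p = 0.0578). Without APC-WT replicate 1, the low library of its group, the log2 change was −1.61 (edgeR adjusted p = 0.0137). Mast cell markers were lower in the same libraries, and all 6 fell. Their sums were 59.9, 144.2 and 133.6 CPM in APC-WT replicates 1 to 3 and 15.0 to 25.7 CPM among APC-KI libraries. Most of each APC-KI sum came from Kit, at 15.7, 21.8 and 13.9 CPM in replicates 1 to 3. Kit fell 1.71-fold and the others between 28.4-fold (Fcer1a) and 81.9-fold (Tpsab1). Tpsab1 reached the filter's level in APC-WT libraries only, so it could enter the test only by being higher there. The part of mast cells in the Cyp11a1 values was not tested. Cyp19a1, the aromatase, had 2, 6 and 25 counts in APC-WT and 1, 0 and 1 in APC-KI libraries and was too low for edgeR. Cyp21a1, the steroid hydroxylase of the adrenal cortex, stood at 3.60, 12.6 and 13.4 CPM among APC-WT and at 10.7, 9.62 and 19.5 CPM among APC-KI libraries (log2 0.43, adjusted p = 0.575). It shares 21.3% of its 50-base words with the pseudogene Cyp21a2-ps. Cyp11b1, Cyp11b2 and Cyp17a1 had 3 counts or fewer each.

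The vitamin D enzymes were low, and edgeR called 0 of 2, with 0 at an unadjusted p under 0.05 and 0 with DESeq2 or limma-voom. Cyp27b1, which makes the active hormone, had 0.457 to 0.617 CPM among APC-WT and 0.365 to 0.445 CPM among APC-KI libraries (log2 −0.34, adjusted p = 0.391). Cyp2r1, which makes its precursor, had 0.840 to 1.68 and 1.38 to 1.57 CPM (log2 0.38, adjusted p = 0.42). Cyp24a1, the degrading enzyme, had 5 counts in all. Of 4 tested genes of the vitamin D pathway 0 rose and 1 fell. The receptor Vdr did not pass (log2 0.63, adjusted p = 0.0503), and the calcium-binding protein S100g fell from 12.7, 18.7 and 9.86 CPM to 1.46, 0.765 and 2.49 CPM (log2 −3.13, edgeR adjusted p = 0.00946). The calcium channel Trpv6 did not pass, at 11.1, 23.7 and 8.98 CPM among APC-WT and 47.5, 10.9 and 90.3 CPM among APC-KI libraries (log2 1.76, adjusted p = 0.138).

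The one tested retinoic acid hydroxylase did not pass. Cyp26b1 ranged from 1.79 to 3.36 CPM among APC-WT and from 1.57 to 4.39 CPM among APC-KI libraries (log2 0.07, adjusted p = 0.916). Cyp26a1 had 43 counts and was not tested, and Cyp26c1 had 12. In the retinoid pathway list, 5 of 14 tested genes rose and 1 fell. One of the 5, Crabp2, reached the filter's level in APC-KI libraries only and so could enter the test only by being higher there. Lrat, which esterifies retinol, rose by 3.41 on the log2 scale, from 0.18, 0.25 and 0.37 CPM to 2.44, 2.52 and 3.50 CPM (edgeR adjusted p = 0.00451). The binding proteins Rbp2 and Crabp2 rose by 1.48 and 1.69, and the retinal dehydrogenase Aldh1a3 by 1.76. The retinol dehydrogenase Rdh10 fell by 0.51 on the same scale. Of the 8 that did not pass, Stra6, Rara, Rarb, Rarg and Aldh1a2 had negative log2 differences and Aldh1a1, Dhrs3 and Bco1 positive ones. Stra6 ranged from 293.6 to 416.5 CPM among APC-WT and from 110.0 to 302.0 CPM among APC-KI libraries (log2 −0.98, edgeR adjusted p = 0.106). The list sums overlapped, at 754.4 to 856.9 CPM among APC-WT and 578.1 to 1029.3 CPM among APC-KI libraries. The calls of Aldh1a3 and Crabp2 were lost when any library but APC-WT replicate 3 was left out (adjusted p between 0.0594 and 0.13). The Rbp2 call was lost without APC-WT replicate 2 (adjusted p = 0.0657). The Rdh10 call was lost without APC-WT replicate 2, APC-KI replicate 1 or APC-KI replicate 2 (adjusted p between 0.0504 and 0.056).

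Several members had a wide spread within a group. Cyp4f14, a leukotriene and fatty acid hydroxylase, stood at 7.83, 7.30 and 10.4 CPM among APC-WT and at 29.8, 30.5 and 4.02 CPM among APC-KI libraries. APC-KI replicates 1 and 2 were above every APC-WT library and replicate 3 below every one, and Cyp4f14 passed only without that replicate (log2 1.82, edgeR adjusted p = 0.00405, against log2 1.33 and adjusted p = 0.199 with all 6). Cyp2c55 and Cyp2c65, arachidonic acid oxidising enzymes of the large intestine, also had their lowest APC-KI value in replicate 3, but their highest in replicate 1. Cyp2c55 was at 4.60, 1.90 and 1.44 CPM among APC-WT and at 9.05, 2.54 and 0.463 CPM in APC-KI replicates 1 to 3, so that replicate 2 lay within the APC-WT range. Cyp2c65 was at 5.53, 1.53 and 5.03 CPM among APC-WT and at 13.7, 9.89 and 1.26 CPM in APC-KI replicates 1 to 3. Neither passed (log2 0.60 and 1.04, adjusted p = 0.682 and 0.406). Cyp2b10, the main target of the receptor CAR, had 16.5, 9.71 and 4.47 CPM among APC-WT and 5.30, 2.08 and 11.7 CPM among APC-KI libraries, so that replicate 3 was the highest APC-KI library for it. These members were chosen for their spread after their values were seen.

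Some epithelial markers also stood apart in APC-KI replicate 3, and the 4 with values here and in the plot of replicate spread were chosen after their values were seen. Krt20, a keratin of surface colonocytes, was at 670.5, 754.1 and 316.2 CPM and the chloride exchanger Slc26a3 at 80.5, 82.3 and 16.8 CPM in APC-KI replicates 1 to 3. The intestinal factor Cdx2 was at 56.5, 51.6 and 5.34 CPM. The distal position gene Hoxd13 was at 70.6, 30.1 and 165.9 CPM, highest in replicate 3. Other markers of the same lists were close to level across the APC-KI replicates: Epcam was at 1829, 1614 and 1569 CPM, Krt19 at 2239, 2157 and 2035 CPM, Lypd8 at 7061, 5730 and 6650 CPM and Hoxa13 at 47.1, 39.6 and 41.0 CPM. Their part in the P450 values was not tested.

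**Figure D3:**
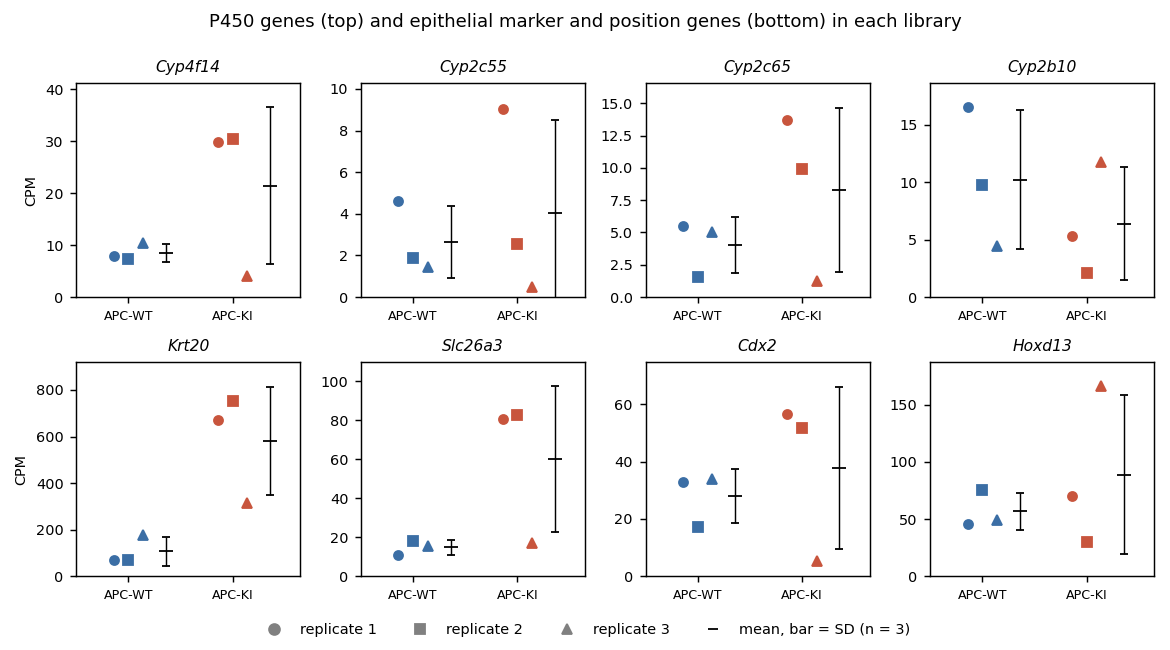
CPM (y axis, linear from 0) of 4 P450 genes (top) and of Krt20, Slc26a3, Cdx2 and Hoxd13 (bottom) in each library; symbols mark the replicate, the black bar is the mean with its SD (n = 3), and the bar of Cyp2c55 is clipped at 0. APC-KI replicate 3 (red triangle) is the lowest APC-KI library for Cyp4f14, at 4.02 CPM, Cyp2c55, Cyp2c65, Krt20, Slc26a3 and Cdx2, and the highest for Cyp2b10 and Hoxd13.

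Of 8 absorptive colonocyte markers 3 rose with the higher CYP2, CYP3 and CYP4 genes and 0 fell. The list summed to 2953.1 to 3377.7 CPM among APC-WT and 8603.5 to 10636.7 CPM among APC-KI libraries. Most of each sum came from Lypd8 and Ceacam1 (means of 1635.7 and 1181.1 CPM among APC-WT, 6480.3 and 2261.9 CPM among APC-KI tumours). The groups of Ceacam1, Car4, Slc26a3, Aqp8 and Guca2a overlapped, and these 5 did not pass. Among 10 markers of colon epithelium 5 rose and 0 fell, with sums of 7660.0 to 8835.6 and 9705.9 to 11664.7 CPM. Small intestinal enterocyte markers were low, with sums up to 5.97 CPM among APC-WT and from 3.08 to 27.6 CPM among APC-KI libraries, and Apoa4, Apoa1, Fabp1 and Sis did not exceed 0.383 CPM in any library. Of the 4 tested 1 rose and 0 fell, with a median log2 change of 2.477. Lct went the other way without passing (log2 −0.61, edgeR adjusted p = 0.204). Its groups did not overlap, at 0.369 to 0.486 CPM among APC-WT and 0.211 to 0.356 CPM among APC-KI libraries. The trehalase Treh rose from 0.075, 0.088 and 0.075 CPM to 0.98, 0.708 and 0.729 CPM (log2 3.31, edgeR adjusted p = 0.00396), and it reached the filter's level in APC-KI libraries only. Fabp2 and Alpi had log2 differences of 2.57 and 2.39 that did not pass (adjusted p = 0.135 and 0.127), with Fabp2 at 1.04, 0.774 and 5.16 CPM among APC-WT and at 24.9, 14.4 and 1.89 CPM among APC-KI libraries. For the 5 position genes of the distal colon edgeR made 0 calls, with 0 at an unadjusted p under 0.05 and 0 with DESeq2 or limma-voom. Of the other cell types, 5 of 7 B and plasma cell markers, 3 of 7 endothelial markers and 2 of 4 tested adipocyte markers rose, and 0 fell. The part of these cell types in the P450 results was not tested.

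Among genes that work with P450 enzymes, the 10 redox partners had no call in either direction (median log2 change −0.015). The reductase Por, which supplies electrons to every microsomal P450, stood at 153.0, 127.0 and 140.6 CPM among APC-WT and at 116.4, 116.9 and 113.0 CPM among APC-KI libraries. Its groups did not overlap, and the log2 difference of −0.28 ± 0.08 SE did not pass (adjusted p = 0.0566). Alas1, the first enzyme of haem synthesis, had a log2 difference of 0.39 (adjusted p = 0.0608). With edgeR 3 of the 10 had an unadjusted p under 0.05, DESeq2 called 2 (Pgrmc2 and Alas1, both higher) and limma-voom 0.

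Of 17 xenosensors and nuclear receptors tested, 4 rose and Ahr alone fell. The bile acid receptor Nr1h4 (FXR) rose from 14.7, 9.51 and 10.9 CPM to 52.2, 54.3 and 36.8 CPM (log2 2.02 ± 0.22 SE, edgeR adjusted p = 0.0049), and Nr5a2, a regulator of steroid and bile acid genes, by 2.40 on the log2 scale. Hnf4a rose by 0.55 and Esrra by 0.31, and neither passed with library totals only (adjusted p = 0.0527 and 0.127). Esrra, at an adjusted p = 0.0493 with edgeR on all 6 libraries, passed in 4 of 16 alternatives and also missed the threshold with limma-voom, RLE factors, upper-quartile factors or no filter (adjusted p between 0.0532 and 0.0648). The xenobiotic receptors Nr1i2 (PXR) and Nr1i3 (CAR), which regulate Cyp3a and Cyp2b genes, did not pass (log2 0.30 and −1.06). Without APC-WT replicate 2, APC-KI replicate 1 or APC-KI replicate 2 the calls of Nr5a2, Hnf4a and Esrra were lost (adjusted p between 0.0657 and 0.152). Those of Nr5a2 and Hnf4a were also lost without APC-WT replicate 1 (0.0652 and 0.0795), and those of Hnf4a and Esrra without APC-WT replicate 3 (0.0759 and 0.104). Among 6 tested genes of bile acid transport and signalling, Nr1h4 and the efflux genes Abcc3 and Slc51b rose (log2 1.46 for Abcc3 and 2.19 for Slc51b). Fabp6, Slc10a2 and Abcc2 did not pass (log2 1.01, −1.30 and −0.66). Slc51a was too low to be tested, with 18, 7 and 9 counts in APC-WT and 1, 1 and 0 in APC-KI libraries. The Slc51b call was lost without APC-WT replicate 2 or 3 or APC-KI replicate 1 or 2 (adjusted p between 0.109 and 0.125). In the eicosanoid list, the soluble epoxide hydrolase Ephx2, which acts on the epoxides that Cyp2c and Cyp2j enzymes make, rose from 1.44, 1.90 and 3.78 CPM to 14.1, 17.8 and 17.7 CPM (log2 2.80 ± 0.37 SE, edgeR adjusted p = 0.00729). The phospholipase Pla2g2a fell by 1.82 on that scale, and the synthases Tbxas1 and Ptgis, P450-fold enzymes named by product, did not pass (log2 0.43 and 0.72).

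The directions of the 14 called members held under every alternative in which they were tested, and the calls depended on the libraries used. Cyp2d34 and Cyp3a13 passed in all 16 alternatives and Cyp2a4 in all 15 in which it was tested. Cyp2a4 reached the filter's level in APC-KI libraries only, so fits with that filter could test it only by its being higher there. The stricter filter left it out. Without APC-WT replicate 2, 7 of 43 tested members were called higher, against 4.02% of all genes. The counts were 8 of 44 without APC-KI replicate 1 and 8 of 43 without APC-KI replicate 2, against 4.95% and 5.02%. Restricted to libraries lacking Y-linked counts, the fit kept 3 of the 14 (Cyp2a4, Cyp2d34 and Cyp3a13), where 0.872% of all genes were higher. There the lone APC-WT sample takes its spread from the APC-KI group. The calls of Cyp2s1 and Cyp4f40 were lost in that fit (adjusted p = 0.0635 and 0.115, log2 1.49 and 1.93).

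**Figure D4:**
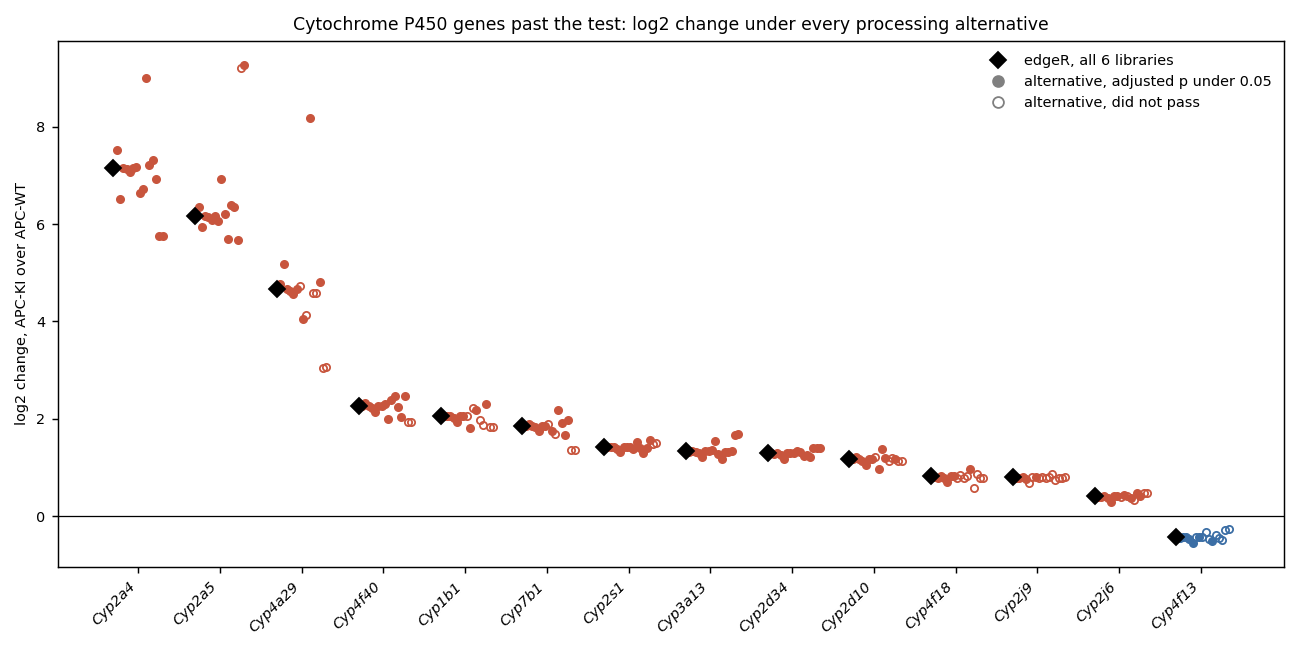
Fitted log2 change (y axis, APC-KI over APC-WT) of the 14 called P450 genes with edgeR on all 6 libraries (black diamond) and under up to 16 alternatives (circles; filled where the adjusted p was under 0.05, open where it was not). No gene crosses 0, and the circles of Cyp2d34, Cyp3a13 and Cyp2a4 are filled throughout. Cyp2a4, Cyp2a5 and Cyp4a29 could enter fits with the low-count filter only by being higher in APC-KI libraries.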

How the data were processed

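RNA sequencing measured gene expression in 6 colon tumours, 3 per group, with groups and replicate numbers taken from the sample titles. Per the labels' protocols, total RNA was purified with DNase digestion and libraries were made with a stranded poly(A) kit. The submitters' processing notes name the aligner STAR, the trimmers cutadapt 2.5 and Trim Galore 0.6.4, DESeq2 1.37.6, and builds GRCm38 and mm10. Which tool counted reads, whether it used strand and on which annotation is not given in the sources used here, so a gene and an antisense partner cannot be told apart with certainty. The deposited values are raw whole-number counts per Ensembl gene.

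Symbols, gene types and exon lengths came from GENCODE M21, which held 52147 of 53700 identifiers, 35 with the same version, so these served as names and lengths alone. Genes kept by filterByExpr entered edgeR 4.0.16 with TMM scaling (robust quasi-likelihood, group as the sole term) in R 4.3.3, with Benjamini-Hochberg adjustment over 19127 genes and a threshold of 0.05. The SE given with an edgeR log2 change is the absolute log2 change over the square root of the test's F statistic. It is therefore approximate. The steps were tested on simulated data. Shared 50-base words were counted over all M21 transcripts, and promoter windows came from RefSeq, matched by symbol. Alternatives used DESeq2 1.42.0, limma-voom (limma 3.58.1), other scalings and filters, the replicate number as a block, each library left out, and the Y-linked state. Members that passed are named with values per library, and the others by role. The members and lists were chosen with earlier results of these data known. Protein sequences were not analysed here. The values of some genes in the lists are not reported here.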

Additional observations from a re-analysis of the deposited data

Results flagged for a closer look

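Rows of the table named as P450 pseudogenes were not among the members above, and 5 of them had 30 or more counts. These were tested and so count among all genes above. Cyp2d34-ps had 0.105, 0.229 and 0.131 CPM among APC-WT and 0.807, 0.822 and 0.658 CPM among APC-KI libraries, with a mean of 0.762 CPM among APC-KI tumours that lay above every APC-WT library (log2 2.29 ± 0.36 SE, edgeR adjusted p = 0.0103). Cyp21a2-ps had 0.075, 0.035 and 0.037 CPM among APC-WT and 0.25, 0.421 and 0.249 CPM among APC-KI libraries, a mean of 0.307 CPM (log2 2.55 ± 0.47 SE, edgeR adjusted p = 0.0162). It reached the filter's level in APC-KI libraries only, so it could enter the test only by being higher there. Cyp2d34-ps reached that level in 1 APC-WT and 3 APC-KI libraries. The filter asked for 3 libraries, so Cyp2d34-ps too entered the test through the APC-KI group. Cyp4f41-ps, Cyp2d37-ps and Cyp2c52-ps had groups that overlapped.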

How the results depend on the processing

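Without TMM factors, on library totals only, the median log2 change of all genes was −0.132 (−0.016 with TMM) and that of the members 0.333. There 2844 genes and 3 P450 genes were lower, and Cyp26b1 (−0.0319) and Cyp4f16 (−0.0114) changed sign. DESeq2 called 2230 genes and 4 P450 genes lower. With limma-voom 0 P450 genes were lower, and Cyp26b1 (−0.0122) and Cyp2c55 (−0.1338) changed sign. Replicate numbers did not pair the samples: deviations of same-numbered libraries correlated at 0.035, −0.068 and −0.182. With the replicate block 1195 genes were higher and 465 lower, 6 P450 genes were higher and 0 lower, and Cyp26b1 was at −0.0112. Over the libraries without Y-linked counts 178 genes were higher and 152 lower, with 3 P450 genes higher and 0 lower. There the signs changed for Cyp21a1 (−0.0133), Cyp2b10 (0.51), Cyp2d9 (0.2953), Cyp2r1 (−0.1873), Cyp39a1 (0.0101) and Cyp4b1 (−0.2182). As a covariate, the Y-linked state gave 220 higher and 195 lower genes, with 4 P450 genes higher and 0 lower, and the same 6 genes stood at −0.011, 0.5121, 0.2979, −0.1848, 0.0125 and −0.2154. Leaving out each library in turn gave 788 to 2542 higher and 300 to 1595 lower genes, and 7 to 13 higher and 0 to 1 lower P450 genes. The log2 change then ranged from −0.4459 to 0.357 for Cyp26b1, −0.8197 to 1.2617 for Cyp2c55, −0.0642 to 0.8749 for Cyp2d26, −0.4245 to 0.1932 for Cyp2d9, −0.0888 to 0.0725 for Cyp39a1, −0.2071 to 0.5509 for Cyp2u1 and −0.1685 to 0.8297 for Cyp2w1. None of the genes whose sign changed had passed the test. Of the called genes in the pathway lists, Abcc3, Ephx2, Nr1h4 and Lrat alone kept their calls with the Y-linked state as a covariate. Cyp11a1, Cyp2c68, Cyp2d22, Cyp4f17 and Cyp51 passed with DESeq2 (adjusted p between 0.00624 and 0.0257) and not with edgeR. The causes were not tested. Members under 50 counts were too low for the test.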
